A study of Mus musculus with 12 samples.

Results

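The 47 genes described here encode proteins that copy DNA or carry a cell from G1 into S phase. They were listed by role, with earlier results of these data known, and matched to the array through the platform annotation. Of the 47, 46 had at least 1 probe set annotated to that gene alone, and Chaf1a had none. The 46 genes are part of 18193 genes with such a probe set, of which 11696 were bright enough to test, all 46 among them. They held 98 single-gene probe sets, of which 91 passed the same brightness filter when probe sets were tested singly, and 12 of the genes had 1 probe set only. Of several probe sets, the brightest on average stood for the gene.

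The experiment followed a mouse B cell line during conversion towards macrophages. C10 cells carry an inducible form of C/EBPa, a transcription factor of the myeloid lineage, and beta-estradiol is the inducer. C10 was sampled after ethanol vehicle and after 3, 12, 24 and 48 h of beta-estradiol. HAFTL cells, named in the design as a control and with no inducible factor named for them, received beta-estradiol. Each of these 6 conditions was measured on 2 arrays of total RNA, 12 arrays in all. The duration of the vehicle and HAFTL treatments is not stated in the labels. Whether the arrays of a pair come from separate cultures is not in the labels. The p-values then reflect no more than the spread between the samples of a pair, possibly a technical one. C10 is a single line, and the number of arrays limits the precision of every value.

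Before S phase, the origin recognition complex, Cdc6 and Cdt1 load the Mcm2 to Mcm7 helicase onto DNA in an inactive form, a step called licensing. Cdc45 and the GINS complex then activate the helicase, primase starts new strands, and polymerases extend them with the sliding clamp Pcna. Many of these genes are transcribed under E2F factors, which cyclin E with its kinase helps to release from pocket proteins at the end of G1.

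The duplicates correlated at r = 0.976 to 0.980 across genes, which are not independent replicates. Summed signal of 7 pre-B markers lay between 99750 and 101000 in vehicle C10 and between 18080 and 19730 after 48 h. The sum of 8 macrophage markers went the other way, from 1290 to 1359 in vehicle to 116700 to 116800 after 48 h. Of these 8, Adgre1 was not called at any time, and Fcgr1 and Cd68 were lower than vehicle at 3 and 12 h and higher at 24 and 48 h. Granulocyte markers, 6 genes, summed to 191 to 207 in vehicle, 13770 to 15390 after 24 h and 8662 to 10080 at 48 h. That rise was in Camp and S100a8, while Mpo was not called and Elane, Ltf and Csf3r were too dim to test. Markers of T and NK cells (4 genes measured) and of erythroid cells (2 genes measured) summed to at most 240 and 250.3 on every array. The 4 stromal markers summed to 12300 to 12590 in vehicle and 35760 to 37330 at 48 h, nearly all of it Vim (12190 and 12470, then 35660 and 37220). Col1a1 and Pdgfra were too dim to test and Col1a2 was not called. None of the marker genes measured was at the signal floor of 16 on all arrays. The ratio of 5′ to 3′ Actb signal, a sign of RNA integrity and labelling, was 0.58 to 0.64 in vehicle C10, 0.69 to 0.74 in HAFTL and 0.75 to 0.85 on all C10 arrays with estradiol. The same ratio for Gapdh did not separate vehicle from estradiol in C10. It was 1.15 and 1.194 in vehicle, 1.282 and 1.366 in HAFTL and 1.135 to 1.315 on the C10 arrays with estradiol. Replicate 2 after 3 h stood apart in 18S rRNA signal, at 5962 against 234.8 to 1025 on the other arrays. The part of these shifts in the results that follow was not tested. In bulk RNA, fewer cells of a type and less RNA per cell cannot be told apart.

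After 3 h of estradiol 45 of the 46 genes had risen against vehicle C10 and 1, Prim2, had fallen, at an adjusted p below 0.05 in limma. Among all genes tested, 20.9% were called higher and 27.3% lower at that time. The median log2 change was 1.52 for the replication genes and -0.06 for all genes tested. Both 3 h arrays lay above both vehicle arrays in the same 45 genes. Over all genes tested, 33.7% lay above in this way and 40.7% below. Leaving out the array with high 18S signal gave 41 higher and 1 lower, and leaving out each of the other 3 arrays gave 42 higher and 1 lower. Taking all probe sets singly, 80 of the 91 tested were higher and 2 lower, where 20.6% of all probe sets tested were called higher. The share of all probe sets called lower at 3 h was not counted.

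At 12 h the count was 37 higher, 1 lower and 8 not called, against 22.3% higher and 28.7% lower among all genes tested. The median was 1.27, beside -0.08 for all genes. At 24 h the genes were mostly on the other side of vehicle: 38 were lower, 3 higher and 5 not called, with a median of -1.62. The share called lower was 33.3% of all genes tested and the share called higher 24.2%. By 48 h, 40 genes were lower, 3 higher and 3 not called, and the median was -2.19, beside -0.19 for all genes. Of all genes tested, 38.2% were called lower at 48 h and 24.2% higher, and of all probe sets tested 30.0% were called lower. Of the 91 probe sets of the replication genes, 65 were lower and 5 higher at 48 h. The share of all probe sets called higher at 48 h was not counted. All 4 comparisons use the same vehicle arrays, so they are not independent of each other.

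**Figure D1:**
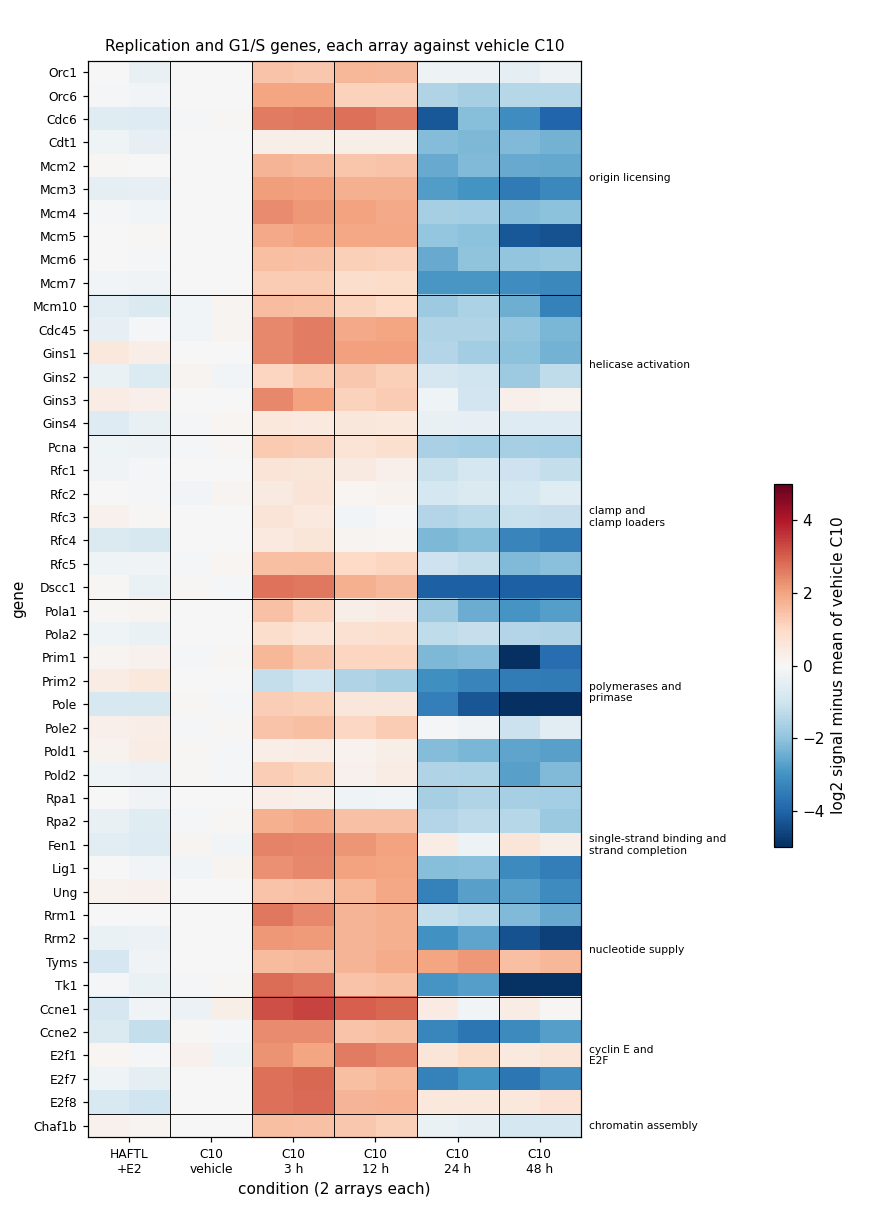
Heat map of log2 signal in each of the 12 arrays minus the mean of the vehicle C10 arrays, for the 46 genes (rows, by role) and 6 conditions (columns, 2 arrays each, E2 standing for beta-estradiol). Red is above vehicle and blue below, and the colour scale ends at 5 on either side; the 3 h columns are red in all rows but Prim2, and the 48 h columns are blue in most rows.

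The fall was dated by comparing each time with the time before it. From 3 to 12 h, 20 genes fell and none rose, with 16.6% of all genes tested called lower and 16.6% called higher. From 12 to 24 h, 45 of 46 fell, with a median of -2.61, while 23.1% of all genes tested were lower and 22.3% higher. Tyms was the exception. From 24 to 48 h, 20 fell further and Gins3 alone rose, against 17.9% lower and 9.47% higher in all genes tested. The count of 20 became 7 when only the arrays of 24 and 48 h entered the fit, and the rise of Gins3 was then not called. Over all genes tested, the share lower went from 17.9% to 5.6% in that fit and the share higher from 9.47% to 3.9%. The 7 were Mcm5, Rfc4, Rfc5, Lig1, Rrm1, Rrm2 and Tk1. The Gins3 rise of 0.80 was also not called without 24 h replicate 2 (0.43, adjusted p = 0.12), 48 h replicate 1 (0.76, 0.13) or 48 h replicate 2 (0.85, 0.093). In the same step Cdc45, Gins1 and Mcm10 lost their calls on leaving out single arrays (adjusted p = 0.066 to 0.10). In 45 genes the largest fitted decline was the step from 12 to 24 h. Among the estradiol times, the mean signal was highest at 3 h in 38 genes, at 12 h in 7 and at 24 h in 1. A total of 29 genes were higher than vehicle at 3 and 12 h and lower at 24 and 48 h. For all genes tested, this course, the step of largest decline and the time of highest mean were not counted.

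Between HAFTL with estradiol and vehicle C10, 40 of the genes were not called, 5 were lower (Mcm3, Gins4, Rfc4, Ccne2 and E2f8) and 1, Prim2, was higher. Among all genes tested, 8.12% were lower and 7.11% higher. The log2 differences of the 46 genes ranged from -0.96 to 0.44. Leaving out vehicle replicate 2 reduced the count of lower genes to 2, and leaving out vehicle replicate 1 or HAFTL replicate 1 reduced it to 3. Prim2 was no longer called when any 1 of the 4 arrays was left out. With HAFTL as the control in place of vehicle, 44 genes were higher at 3 h, against 22.3% of all genes tested, and 38 lower at 48 h, against 38.3%.

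The arrays were also scaled to the poly-A spike-in probe sets in place of quantile normalisation. These probe sets detect RNA that can be added during labelling, and whether it was added here is not in the labels. The scaling moved the median change of all genes tested up by 0.64, 0.47, 0.35 and 0.57 at the 4 times in turn. Relative to the median of all genes on that scale, the median replication gene stood at 1.64, 1.35, -1.51 and -2.04. At 3 h, 42 of the replication genes were then higher and 0 lower, where all genes tested went from 2450 higher and 3196 lower to 2201 higher and 462 lower (18.5% and 3.88%). At 12 h, 34 were higher and 0 lower, against 13.3% and 4.42% of all genes tested. At 24 h, 1 was higher and 25 lower, against 14.7% and 7.26%. At 48 h, 2 were higher and 28 lower, against 21.5% and 9.51%. The mean log2 spike-in signal of the duplicates at 48 h was 7.54 and 6.52, so this scale varied between arrays of one condition. Over all arrays that mean was 6.52 to 7.75, beside the brightness filter at log2 6.22, so background signal may have a part in this scale. In the step from 12 to 24 h, 43 genes fell on this scale, against 6.15% of all genes tested, whereas only 1 fell from 3 to 12 h (1.75% of all genes) and 5 from 24 to 48 h (1.28%).

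The licensing genes rose as a set of 10 of 10 after 3 h (median 1.80) and 10 of 10 after 12 h (median 1.53), and 9 of 10 were lower at 24 h and 10 of 10 after 48 h (median -2.41). Cdc6, the ATPase that brings the helicase to the origin complex, had signals of 366.5 and 405.8 in the vehicle arrays, 2308 and 2373 after 3 h and 2568 and 2343 after 12 h. At 24 h its signals were 20.2 and 87.3, and at 48 h 44.5 and 24.7. Its arrays at 3 and 12 h were all above vehicle and those at 24 and 48 h all below, with no overlap. The change was 2.60 ± 0.59 (SE, n = 2 arrays a group; adjusted p = 0.0080) at 3 h, and at 48 h, when both arrays were under the brightness filter, Cdc6 was at least 5.17-fold lower. The mean of its 24 h arrays was under the filter too, so the size of its step from 12 to 24 h is uncertain.

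Mcm5, a subunit of the helicase ring, gave 3695 and 3859 in vehicle, 13940 and 15050 after 3 h, and 14620 and 14570 after 12 h. It then gave 979.5 and 903.4 after 24 h and 199.1 and 182.6 after 48 h. Each later pair of arrays lay below the pair before it from 12 h on, and the fall from 24 to 48 h was -2.30 ± 0.08 (adjusted p = 3.3e-06). The other ring subunits had smaller fitted changes in that step on their brightest probe sets. Mcm6 changed by 0.33 between 24 and 48 h (adjusted p = 0.16) and Mcm2 by -0.16 (adjusted p = 0.29), while Mcm3, Mcm4 and Mcm7 fell by 0.48, 0.43 and 0.23. The calls of Mcm3 and Mcm4 were lost without 24 h replicate 1 (-0.39 and -0.40) or 48 h replicate 1 (-0.32 and -0.37), and that of Mcm7 on leaving out any array but 48 h replicate 1 (adjusted p = 0.12 to 0.15). Without 24 h replicate 1 Mcm2 was called (-0.32, adjusted p = 0.049), and without 24 h replicate 2 so was Mcm6 (0.59, adjusted p = 0.0087). Against vehicle the 6 ring subunits rose by 1.28 (Mcm7) to 2.27 (Mcm4) at 3 h, and at 48 h they had fallen by 1.94 (Mcm6) to 4.31 (Mcm5). The dimmer probe set of Mcm2 gave -0.49 (adjusted p = 0.24) at 24 h and -2.26 at 48 h. Its mean log2 signal went from 9.57 at 24 h to 7.80 at 48 h, a larger decline than on the brightest Mcm2 probe set.

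Orc1 and Orc6 are subunits of the origin recognition complex. Orc6 had 707.5 and 671.4 in vehicle, 2738 and 2703 after 3 h and 242.9 and 220.4 after 24 h, with no overlap among these conditions. Orc1 had 267.1 and 258.6 in vehicle, 700.1 and 666.2 after 3 h, 834.7 and 799.6 after 12 h, and 222.9 and 218.3 after 24 h. Its change at 24 h was -0.25 (95% interval -0.55 to 0.04, adjusted p = 0.13). At 48 h it was -0.36 (adjusted p = 0.039), a call lost on leaving out vehicle replicate 1 (-0.33, adjusted p = 0.13), vehicle replicate 2 (-0.38, 0.095) or 48 h replicate 1 (-0.24, 0.21), and turned to 0.16 on the spike-in scale. The other Orc1 probe set did not show that fall. Its mean log2 signal was 8.04 in vehicle, 7.96 at 24 h and 8.37 at 48 h, and the arrays of both times overlapped those of vehicle. Cdt1, the loading factor that geminin inhibits, moved little at 3 h. It had 5274 and 5328 in vehicle and 6473 and 6509 after 3 h, a change of 0.29 ± 0.09 (adjusted p = 0.026), and the call at 3 h was lost when any 1 of the 4 arrays was left out (adjusted p = 0.081 to 0.094), as was that at 12 h (0.082 to 0.095). By 24 h Cdt1 stood at 1187 and 1104, well below vehicle, and the change of -2.21 was called.

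**Figure D2:**
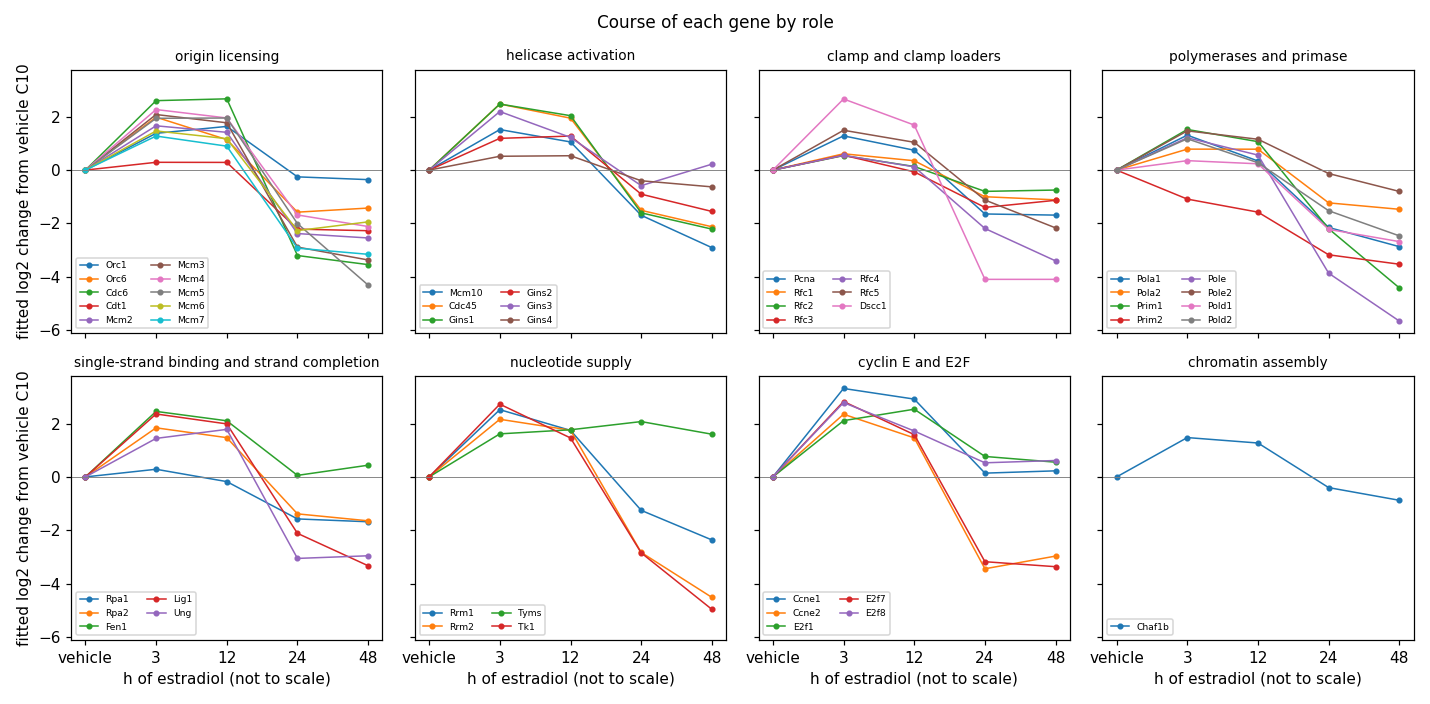
Fitted log2 change from vehicle C10 (vertical axis) at 3, 12, 24 and 48 h of estradiol (horizontal axis, not to scale), 1 line per gene and 1 panel per role. Most lines are above 0 at 3 and 12 h and below 0 at 24 and 48 h; Tyms, E2f1, E2f8, Fen1 and Ccne1 stay above 0, the last 2 not called at 24 and 48 h, and Prim2 is below 0 throughout.

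The upstream windows of 7 genes are shown. Cdc6, Mcm5, Mcm6, E2f7, Pcna and Rrm2 rose at 3 h and were below vehicle at 48 h, the first 4 with a match to an E2F motif and the last 2 without, and Tyms, also without a match, stayed above vehicle. Of the 29 genes higher at 3 and 12 h and lower at 24 and 48 h, 23 had a window, and it held a match in 8 and none in 15. Each window is the 250 bases before the annotated start in RefSeq, build GRCm38.p6, written 5′ to 3′ on the gene's strand, with matches to an E2F motif in capitals. The motif was searched as TTTCCCGC, TTTCGCGC, TTTGCCGC and TTTGGCGC on both strands, and matches may overlap. The windows are chr11:98907901-98908150, plus strand for Cdc6, chr8:75109259-75109508, plus strand for Mcm5, chr1:128359706-128359955, minus strand for Mcm6, chr10:110745189-110745438, plus strand for E2f7, chr2:132253181-132253430, minus strand for Pcna, chr12:24708004-24708253, plus strand for Rrm2 and chr5:30073626-30073875, minus strand for Tyms.
Cdc6: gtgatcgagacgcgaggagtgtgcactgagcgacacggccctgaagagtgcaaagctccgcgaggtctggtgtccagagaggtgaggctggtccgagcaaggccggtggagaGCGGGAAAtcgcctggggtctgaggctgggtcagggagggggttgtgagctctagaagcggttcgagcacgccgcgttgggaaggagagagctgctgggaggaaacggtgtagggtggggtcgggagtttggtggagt
Mcm5: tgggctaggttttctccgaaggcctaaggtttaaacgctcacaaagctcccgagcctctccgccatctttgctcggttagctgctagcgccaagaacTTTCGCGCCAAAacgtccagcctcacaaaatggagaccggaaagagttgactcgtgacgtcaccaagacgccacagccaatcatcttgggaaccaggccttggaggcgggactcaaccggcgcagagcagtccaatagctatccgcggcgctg
Mcm6: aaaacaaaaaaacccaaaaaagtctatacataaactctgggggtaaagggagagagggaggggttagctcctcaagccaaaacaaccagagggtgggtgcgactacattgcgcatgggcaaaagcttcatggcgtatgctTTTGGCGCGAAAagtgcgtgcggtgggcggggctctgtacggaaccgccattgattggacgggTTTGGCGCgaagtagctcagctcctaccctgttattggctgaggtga
E2f7: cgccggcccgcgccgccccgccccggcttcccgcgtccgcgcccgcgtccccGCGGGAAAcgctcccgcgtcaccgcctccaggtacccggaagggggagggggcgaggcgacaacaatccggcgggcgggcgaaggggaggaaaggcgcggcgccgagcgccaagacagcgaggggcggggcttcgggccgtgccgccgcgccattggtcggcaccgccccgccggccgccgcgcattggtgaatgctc
Pcna: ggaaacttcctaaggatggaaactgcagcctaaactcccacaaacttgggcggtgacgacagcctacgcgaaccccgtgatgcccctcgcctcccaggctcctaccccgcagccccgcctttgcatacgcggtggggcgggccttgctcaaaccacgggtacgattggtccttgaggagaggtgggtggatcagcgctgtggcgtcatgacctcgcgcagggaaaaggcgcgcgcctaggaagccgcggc
Rrm2: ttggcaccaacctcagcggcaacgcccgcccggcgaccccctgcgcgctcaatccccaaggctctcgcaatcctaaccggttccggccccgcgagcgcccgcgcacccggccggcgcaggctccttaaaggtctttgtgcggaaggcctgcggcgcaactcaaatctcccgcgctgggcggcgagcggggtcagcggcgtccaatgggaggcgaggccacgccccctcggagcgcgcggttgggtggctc
Tyms: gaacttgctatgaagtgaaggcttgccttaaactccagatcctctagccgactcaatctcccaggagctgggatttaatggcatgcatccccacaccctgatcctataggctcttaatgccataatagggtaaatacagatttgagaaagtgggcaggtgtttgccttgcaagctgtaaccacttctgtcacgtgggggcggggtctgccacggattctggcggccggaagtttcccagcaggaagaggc

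Windows from 250 bases before the start to 50 after it were found for 38 of the 47 genes (43 windows). The genes without a window are Pole, Gins1, Dscc1, Gins2, Ccne2, Gins4, Mcm4, Rfc2 and Prim2. An E2F match stood in 14 of 38 genes, or 36.8%, beside 2.60% of all 27025 genes with a window and 4.72% of the 9500 genes that were tested on the arrays. CCAAT on either strand was found in 60.5% of the 38 genes and in 42.8% of the tested genes, and TTTGAA in 15.8% and 14.5%. Median GC content was 61.3% in the replication genes' windows and 60.3% in those of tested genes. A match is a description of letters and not a binding site. The median change at 3 h was 1.47 in the 14 genes with an E2F match and 1.61 in the 23 measured genes whose window held none. At 48 h the medians were -2.77 and -1.69.

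Helicase activation genes, 6 of 6, rose at 3 h (median 1.86) and remained called at 12 h, and 5 of 6 were lower at 24 and at 48 h. Cdc45, which joins the ring at origin firing, had 330.7 and 397.9 in vehicle, 1897 and 2145 after 3 h, 1353 and 1443 after 12 h, 126.4 and 128.8 after 24 h and 92.9 and 74.8 after 48 h. The arrays at 3 and 12 h were all above vehicle and the later ones all below. The second probe set of Cdc45 also rose at 3 h, by 2.07, but gave 0.08 (adjusted p = 0.88) at 24 h and 0.41 (adjusted p = 0.36) at 48 h. Mcm10, a scaffold that helps activate the helicase, changed by 1.52 after 3 h and -2.90 after 48 h, where 1 array was under the filter. Its call at 12 h (1.06) was lost without vehicle replicate 1 (0.92, adjusted p = 0.070) or 12 h replicate 1 (1.00, 0.058).

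Among the 4 GINS subunits, Gins1 changed by 2.47 after 3 h and -2.21 after 48 h, and Gins2 by 1.19 and -1.55. Gins4 moved within a narrow range, from 0.52 after 3 h to -0.63 after 48 h. Its 24 h change of -0.40 lost its call without vehicle replicate 2 (-0.31, adjusted p = 0.078) or 24 h replicate 2 (-0.39, 0.054). Gins3 had 149.2 and 144.4 in vehicle, 766.6 and 587.6 after 3 h, 328.6 and 357.3 after 12 h, 126.8 and 75.8 after 24 h, and 177.2 and 165.5 after 48 h. It was thus above vehicle at 3 and 12 h, below it at 24 h and above it again at 48 h. The 24 h difference of -0.58 (95% interval -1.12 to -0.05) was not called after adjustment (adjusted p = 0.062). It was called without 24 h replicate 1 (-0.95, adjusted p = 0.0033), with the mean of probe sets (0.012), with a filter at the 70th percentile (0.036), with a floor of 64 (0.047), with the replicate block (0.043) and against HAFTL (-0.89, 0.012). Not called either was the 48 h difference of 0.22 (adjusted p = 0.44). Its other probe set gave -0.59 and -0.25 at these times, neither called.

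Clamp and clamp loader genes had the lowest median rise of the roles. All 7 were called higher at 3 h with a median of 0.61, 4 after 12 h with a median of 0.35, and all 7 were lower at 24 and 48 h. Pcna, the sliding clamp, had 11910 and 12740 in vehicle, 30640 and 29300 after 3 h, 19890 and 21390 after 12 h, 4050 and 3840 after 24 h and 3908 and 3754 after 48 h. Its signals rose by 1.28 ± 0.07 after 3 h and had fallen by 1.64 ± 0.07 after 24 h, without a further step (-0.04, adjusted p = 0.73). Replication factor C, with 5 subunits, opens the clamp. On the brightest probe sets, its subunits split into Rfc5, at 1.49, and Rfc1 to Rfc4, at 0.54 to 0.61. A dimmer Rfc2 probe set went from a mean log2 signal of 7.31 in vehicle to 8.73 at 3 h. Another went from 8.65 to 8.66. The call of Rfc2 after 3 h was lost without vehicle replicate 1 (0.40, adjusted p = 0.077) or 3 h replicate 2 (0.45, 0.073).

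At 12 h, Rfc2, Rfc3 and Rfc4 were not distinguished from vehicle, with changes of 0.14, -0.07 and 0.12. Rfc1 after 12 h (0.35, adjusted p = 0.026) lost its call without vehicle replicate 1 (0.32, 0.11), vehicle replicate 2 (0.38, 0.067) or 12 h replicate 1 (0.26, 0.15). A dimmer probe set of Rfc1 gave 1.40 after 3 h and -0.05 (adjusted p = 0.80) at 24 h, where the brightest was lower. Rfc4 had 2069 and 2181 in vehicle, 448.9 and 484.6 after 24 h and 214 and 189 after 48 h. That gene and Rfc5 were the loader genes that fell again between 24 and 48 h, by 1.21 and 1.04. Dscc1, part of the loader used in sister chromatid cohesion, had 281.7 and 264.3 in vehicle and 1782 and 1677 after 3 h. All 4 of its arrays at 24 and 48 h were at the floor of 16, which places it at least 3.66-fold below vehicle.

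Polymerase and primase genes had a short rise. Of 8, 7 were higher at 3 h (median 1.19), 3 after 12 h (median 0.45), and 7 were lower at 24 h and 8 after 48 h (median -2.77). In this role 6 of 8 fell again between 24 and 48 h, but none of these 6 was called when only the arrays of both times were fitted (adjusted p = 0.066 to 0.17). The calls of Pola1, Pold1 and Pole2 in that step were also lost on leaving out single arrays: any but 24 h replicate 2 for Pola1 (-0.41 to -0.82), 24 h replicate 1 or 48 h replicate 2 for Pold1, and any but 48 h replicate 2 for Pole2 (-0.39 to -0.70). Pole, the catalytic subunit of the leading-strand polymerase, had 843.2 and 771.3 in vehicle, 1886 and 1849 after 3 h and 1182 and 1200 after 12 h. It was at 74.8 and 41.1 after 24 h, with 1 of these arrays under the filter, and at the floor of 16 on both arrays at 48 h. The 12 h arrays were above vehicle, but the change of 0.56 was not called (adjusted p = 0.079), and at 48 h Pole was at least 10.8-fold lower. Pole2, the accessory subunit of the same enzyme, had 802.8 and 883.4 in vehicle and 788 and 752.6 after 24 h, a change of -0.13 (95% interval -0.53 to 0.27). By 48 h it stood at 398.2 and 588.3, a change of -0.80 (adjusted p = 0.0042).

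Pola1 and Pola2 belong to the polymerase that extends primers. Pola1 changed by 1.31 after 3 h, 0.34 after 12 h (adjusted p = 0.19) and -2.87 after 48 h. Pola2 changed by 0.79, 0.78 and -1.47. A dimmer probe set of Pola2 went the other way at 48 h, with 123.2 and 74.2 against 62.3 and the floor of 16 in vehicle (adjusted p = 0.039). Both vehicle arrays were under the filter, and the probe set was at least 1.28-fold higher. Pold1 and Pold2, of the lagging-strand polymerase, rose by 0.35 and 1.17 after 3 h and had fallen by 2.68 and 2.46 after 48 h. The 3 h call of Pold1 was lost without vehicle replicate 2 (0.29, adjusted p = 0.094), 3 h replicate 1 (0.37, 0.053) or 3 h replicate 2 (0.34, 0.067).

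The primase subunits moved in opposite directions at 3 h. Prim1, the catalytic subunit, had 1508 and 1597 in vehicle, 4904 and 4050 after 3 h, 3246 and 3250 after 12 h, 329.7 and 347.7 after 24 h, and 47.7 and 111.5 after 48 h, the lower of these under the filter. Prim2, the large subunit that binds it, had 4542 and 4537 in vehicle, 1986 and 2303 after 3 h, 1606 and 1447 after 12 h, 546.3 and 464.6 after 24 h, and 401.7 and 387.4 after 48 h. Prim1 was above vehicle on all 3 h and 12 h arrays, and Prim2 was below it on every estradiol array of C10. At 3 h the change was 1.52 ± 0.33 (adjusted p = 0.0065) for Prim1 and -1.09 ± 0.11 (adjusted p = 1.7e-04) for Prim2. Other probe sets gave like values, 1.60 for Prim1 and -0.85 for Prim2, both called.

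HAFTL had 5872 and 6484 for Prim2, above both vehicle arrays. On the spike-in scale the fall of Prim2 was not called at 3 h (-0.30, adjusted p = 0.61) or 12 h (-1.03, adjusted p = 0.092). The 12 h call of Prim1 (1.07, adjusted p = 0.029) was lost when any 1 of the 4 arrays was left out (adjusted p = 0.085 to 0.10).

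**Figure D3:**
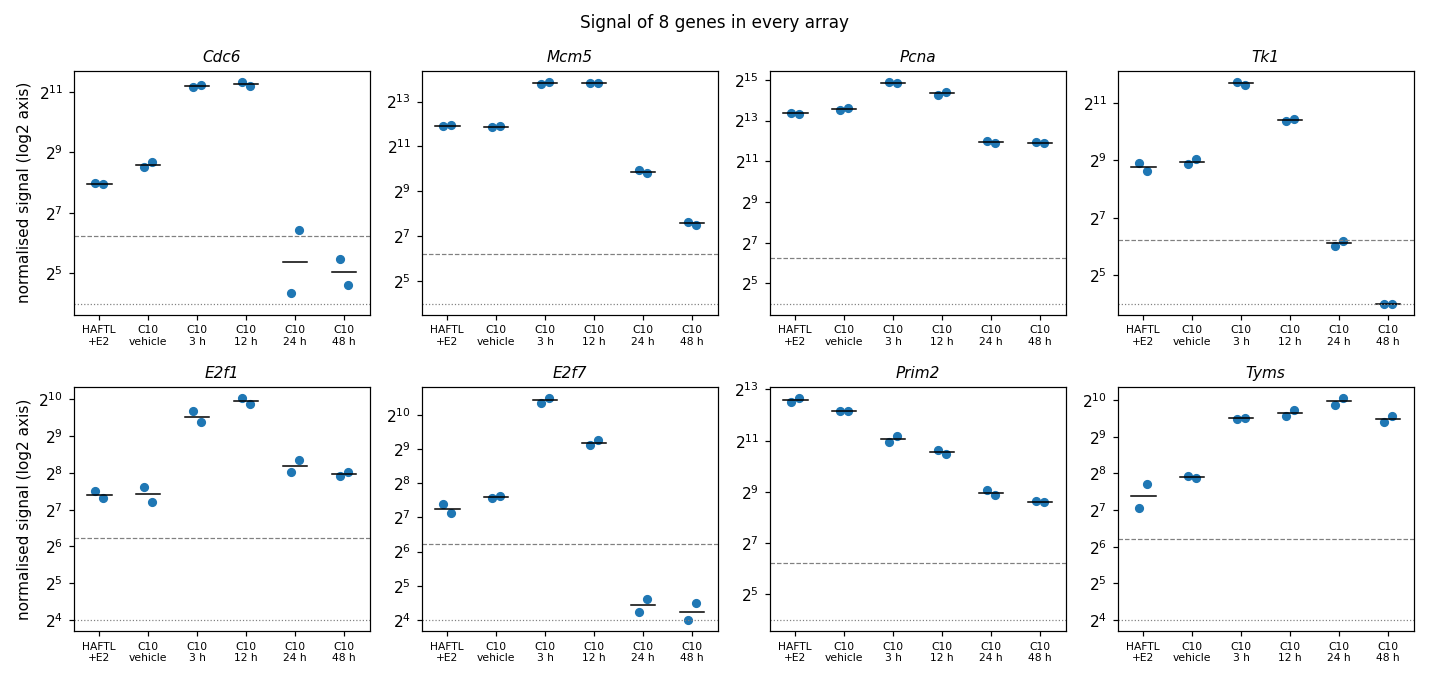
Normalised signal (log2 axis) of Cdc6, Mcm5, Pcna, Tk1, E2f1, E2f7, Prim2 and Tyms in each of the 12 arrays by condition; points are arrays, bars are means of the log2 values, the dotted line is the floor of 16 and the dashed line the brightness filter of 74.65. In 5 of the 8 genes (Cdc6, Mcm5, Pcna, Tk1 and E2f7) the arrays at 24 and 48 h are all below vehicle after a rise, Prim2 has no rise, and E2f1 and Tyms stay above vehicle.

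Among genes of single-strand binding and strand completion, 5 of 5 rose at 3 h, 4 were called higher at 12 h, and 4 were lower at 24 and at 48 h. Rpa1 and Rpa2 belong to the complex that coats single-stranded DNA. Rpa2 rose by 1.84 after 3 h, whereas Rpa1 changed by 0.29 (adjusted p = 0.031), a call lost when any 1 of the 4 arrays was left out (adjusted p = 0.067 to 0.13). Both were lower at 48 h (-1.64 and -1.68). Lig1, the ligase that seals Okazaki fragments, had 837.2 and 1002 in vehicle, 4507 and 4896 after 3 h, 210.1 and 213.5 after 24 h and 100.8 and 82.6 after 48 h.

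Fen1, the nuclease that trims the same fragments, ended elsewhere. It had 1393 and 1173 in vehicle, 7119 and 6887 after 3 h, 5915 and 5099 after 12 h, 1649 and 1073 after 24 h and 1936 and 1551 after 48 h. The arrays at 24 h overlapped those of vehicle, with a change of 0.06 (95% interval -0.43 to 0.55), and the 48 h change of 0.44 (-0.05 to 0.93) was not called. The other Fen1 probe set gave -0.47 at 48 h (adjusted p = 0.062). Ung, which removes uracil from DNA, was highest at 12 h, at 1234 and 1496 against 402.8 and 388.1 in vehicle, and was at least 5.30-fold below vehicle at 24 and 48 h.

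The nucleotide supply genes, 4 of 4, rose at 3 h (median 2.34) and 12 h (median 1.75), and 3 of 4 were lower at 24 and 48 h. Rrm1 and Rrm2 form ribonucleotide reductase. Rrm2 had 4110 and 4183 in vehicle, 18680 and 18360 after 3 h, 13630 and 14280 after 12 h, 506 and 673.9 after 24 h, and 201.5 and 164.2 after 48 h. Its change at 48 h was -4.51 ± 0.14 (adjusted p = 1.8e-07), beside -2.36 ± 0.12 for Rrm1. Tk1, thymidine kinase of the salvage route, had 472.8 and 524.2 in vehicle, 3420 and 3167 after 3 h, 1335 and 1405 after 12 h, 65.3 and 73.7 after 24 h and the floor of 16 after 48 h. Between 3 and 12 h it had already fallen by 1.27 ± 0.11, the widest decline of the 46 genes in that step, and at 24 and 48 h it was at least 6.67-fold below vehicle.

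Tyms, thymidylate synthase of the de novo route, kept its rise. It had 242.4 and 233 in vehicle, 719 and 734.9 after 3 h, 763.2 and 856.6 after 12 h, 937.7 and 1066 after 24 h, and 682.4 and 760.8 after 48 h. All estradiol arrays of C10 were above vehicle, and HAFTL was not, at 132.9 and 208.1. The change was 2.07 ± 0.19 (adjusted p = 5.2e-05) at 24 h and 1.60 ± 0.19 (adjusted p = 1.8e-04) at 48 h. Another probe set gave 1.99 and 1.72, both called, while a dim probe set gave 0.94 and 0.29, neither called. With the mean of all its probe sets the change at 48 h was 0.66 (adjusted p = 0.069).

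The cyclin E and E2F genes had the highest median change of the roles at 3 h, 2.78, with 5 of 5 higher, and all were still higher at 12 h. At 24 and 48 h, 2 were higher, 2 lower and 1 not called. Ccne1, a cyclin that drives entry into S phase, had 152.1 and 224.8 in vehicle, 1736 and 1945 after 3 h, 1449 and 1343 after 12 h, 245.1 and 169.9 after 24 h and 241.3 and 194.4 after 48 h. The 3 h change of 3.31 ± 0.29 (adjusted p = 6.3e-05) was the widest rise of the 46 genes, and the 24 and 48 h arrays overlapped those of vehicle. Its other probe set was lower at 24 h (-0.98, adjusted p = 0.042) and at 48 h (-1.12, adjusted p = 0.023). Ccne2, the partner gene, had 452.3 and 412.3 in vehicle, 2194 and 2204 after 3 h, and 44.5 and 35.6 after 24 h. It was at least 5.79-fold below vehicle at 24 and 48 h, where both arrays of each time were under the filter.

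E2f1, an activator of the E2F family, had 196.9 and 149.2 in vehicle, 816.6 and 668.5 after 3 h, 1049 and 941.9 after 12 h, 262.3 and 324.3 after 24 h, and 241.6 and 261.3 after 48 h. All of these estradiol arrays were above vehicle. The 24 h change was 0.77 (adjusted p = 0.0062). The 48 h change was 0.55 (adjusted p = 0.025), not called without vehicle replicate 2 (0.35, 0.15), 48 h replicate 1 (0.61, 0.057) or 48 h replicate 2 (0.50, 0.10). Another E2f1 probe set gave 0.32 and 0.62 at 24 and 48 h, neither called.

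E2f7 and E2f8 are repressors of the same family. E2f7 had 189.9 and 199.8 in vehicle, 1319 and 1443 after 3 h, 556.8 and 612.1 after 12 h, and at most 24.5 on every array at 24 and 48 h, at least 2.61-fold lower than vehicle. E2f8 had 386.3 and 404 in vehicle, 2658 and 2785 after 3 h, 1277 and 1326 after 12 h, 572.2 and 567.6 after 24 h, and 562.2 and 651.6 after 48 h. Both fell between 3 and 12 h, by 1.24 and 1.07, after which E2f7 went under vehicle and E2f8 stayed above it. The E2f8 changes of 0.53 after 24 h and 0.62 after 48 h (adjusted p = 0.0028 and 0.0011) were not called with the mean of its probe sets (0.53, adjusted p = 0.29, and 0.31, 0.53).

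Chaf1b, a subunit of the chaperone that deposits histones behind the fork, had 570.2 and 561.1 in vehicle, 1599 and 1543 after 3 h, 1437 and 1295 after 12 h, 446.2 and 412 after 24 h, and 306.5 and 310.4 after 48 h. It rose by 1.47 after 3 h and was lower than vehicle at 24 h (-0.40, adjusted p = 0.0031) and 48 h (-0.88, adjusted p = 3.4e-05). On the spike-in scale neither fall was called (-0.11, adjusted p = 0.88, and -0.38, 0.52). The 24 h call was also lost with the mean of its probe sets (-0.13, adjusted p = 0.65).

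A list of further genes of the same pathway, 65 with a probe set, was counted alongside. That list too was chosen with earlier results of these data known. At 3 h 46 were higher and 9 lower (median 0.96). At 12 h 38 were higher and 12 lower. The later counts were 5 higher and 51 lower at 24 h, then 4 higher and 54 lower at 48 h (median -1.42). Of all genes tested, 20.9% were higher and 27.3% lower at 3 h, and 22.3% and 28.7% at 12 h. At 24 h the shares were 24.2% and 33.3%, and at 48 h 24.2% and 38.2%. The same shares stand beside the counts of each shorter list below. Of 34 origin and fork genes, 27 were higher at 3 h and 28 lower at 48 h. Clspn, a mediator of the replication checkpoint, changed by 2.74 after 3 h and -2.74 after 48 h. Chtf18, of the cohesion clamp loader, changed by 2.12 after 3 h and was at least 1.20-fold lower at 48 h. Top2a, the topoisomerase that untangles daughter strands, and Pclaf, which binds Pcna, ended at -4.94 and -4.38.

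Of 9 genes of replication-coupled chromatin, 8 were higher at 3 h and 8 lower at 48 h. Asf1b, a histone chaperone, rose by 2.40, and Dnmt1, the maintenance DNA methyltransferase, by 1.68. Asf1b was -0.72 after 24 h (adjusted p = 0.022), a call lost when any 1 of the 4 arrays was left out (adjusted p = 0.058 to 0.095). Hells and Uhrf1, which act with Dnmt1, had fallen by 3.36 and 2.92 after 48 h. The 12 h rise of Uhrf1 (0.96) was not called without vehicle replicate 2 (0.79, adjusted p = 0.057).

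G1/S control genes were more divided at 3 h, with 8 of 16 higher and 3 lower, and 14 were lower at both 24 and 48 h. Skp2, the ubiquitin ligase subunit that targets CDK inhibitors, rose by 1.97 and Mybl2, a transcription factor of the cycle, by 1.72. Ccna2, the S phase cyclin, rose by 1.68 after 3 h and was at least 32.3-fold lower at 48 h. E2f2 changed by 0.57 after 3 h, a call lost without vehicle replicate 2 (0.54, adjusted p = 0.052) or 3 h replicate 2 (0.46, 0.062), and was at least 7.05-fold lower at 48 h.

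Nucleotide supply outside the 47 genes was split evenly at 3 h, 3 of 6 higher and 3 lower, and 4 were lower at 48 h. Dut, which removes dUTP, changed by 2.33 after 3 h and -4.24 after 48 h. Dctd, which makes dUMP for thymidylate synthase, was lower from 3 h (-1.03) and at least 8.45-fold lower at 48 h. Dck, the deoxycytidine kinase of the salvage route, was higher at every time, by 1.92, 1.56, 1.67 and 2.19.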

How the data were processed

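Total RNA from 12 samples was hybridised to 1-colour oligonucleotide arrays. The deposited table gives an intensity on a linear scale for each probe set and array, and how the authors summarised and scaled them is not given in the sources used here. Their 2% trimmed mean was 500 on every array, and array medians ranged over 0.31 log2 units, so values were quantile normalised over 45101 probe sets. After removal of 64 control probe sets, a floor of 16 was set and log2 taken. A gene took its brightest single-gene probe set and was tested if above log2 6.22 (the median) on at least 2 arrays. No detection calls were used.

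limma 3.58.1 in R 4.3.3 fitted 1 mean per group over all 12 arrays, with empirical Bayes variances and two-sided p-values under Benjamini-Hochberg adjustment over 11696 genes, or 26524 probe sets when these were tested singly. Calls are at adjusted p below 0.05. The fit was tested on simulated independent normal values with a small set of genes changed at 3 h only. In the arrays many genes changed at every time and pairs may be technical, so this test gives no error rate for these data. Where both arrays of a group were under the filter, a change is a bound against it, computed from the brighter group's mean. All members are named; from each list of related genes, the 2 largest rises at 3 h and the 2 largest falls at 48 h were named, with genes whose probe sets disagree. Members and lists were chosen with earlier results of these data known. Alternatives covered normalisation, filter, floor, probe set choice, arrays in the fit, replicate block, variance trend, control and left-out arrays.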

Additional observations from a re-analysis of the deposited data

Results flagged for a closer look

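Groups under the same vehicle comparison differed in direction for 29 genes, which were higher than vehicle C10 at 12 h and lower at 24 h, with the step between these times called in each by limma. Among all genes tested, 22.3% were higher at 12 h and 33.3% lower at 24 h, and genes with both calls were not counted. A probe set annotated to both Tyms and its pseudogene Tyms-ps, which was left out of the gene values, was above vehicle at 48 h by 1.54 ± 0.12 (adjusted p = 2.0e-05), with signals of 2052 and 2128 against 746.8 and 696.1. A probe set of Pola2 that did not represent the gene was at least 1.28-fold above vehicle at 48 h, opposite to the gene's call, with both vehicle arrays under the brightness filter.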

How the results depend on the processing

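Among 488 results for single genes, 7564 alternative values were computed. Of these, 7103 stayed on the same side of the threshold, 353 lost the call and 103 gained it. Another 5 were reversals, in which the sign changed and the main or the alternative value was called. Sign changes with neither value called were counted among the 7103. The causes were not tested. The reversals were E2f2 at 12 h with HAFTL as control (0.39) and from 24 to 48 h with a floor of 64 (0.089), Gins4 at 24 h with HAFTL as control (0.12), Mcm10 from 24 to 48 h with the mean of its probe sets (0.23), and Orc1 at 48 h on the spike-in scale (0.16). With spike-in scaling, lower genes went from 1 to 0 at 3 h and at 12 h, from 38 to 25 at 24 h, from 20 to 1 between 3 and 12 h, from 20 to 5 between 24 and 48 h and from 5 to 0 in HAFTL. Higher genes went on that scale from 3 to 1 at 24 h, from 1 to 0 between 24 and 48 h and from 1 to 0 in HAFTL. Over all genes tested, 0.655% were then lower and 0.504% higher in HAFTL. With only the compared groups in the fit, lower genes numbered 7 between 24 and 48 h and 0 in HAFTL, and higher genes 0 in both. The shares of all genes tested were then 5.6% and 1.56% lower, and 3.9% and 1.15% higher. The 1 higher gene between 24 and 48 h became 0 without the filter and 2 with a filter at the 70th percentile. Over all genes tested, 1108 of 11696 were higher in that step in the main fit. The numbers were 997 of 18193 without the filter and 1215 of 8593 with the 70th percentile filter. The 1 higher gene in HAFTL became 0 with median centring, without the filter, with the mean of probe sets and with the replicate block. Over all genes tested, 406 of 11698, 678 of 18193, 584 of 10749 and 753 of 11696 were then higher, beside 832 of 11696 in the main fit. It became 2 with the 70th percentile filter or the intensity trend, where 1019 of 8593 and 1144 of 11696 genes tested were higher. Lower genes in HAFTL numbered 9 with median centring or a floor of 64 and 10 with the 70th percentile filter or the trend. Over all genes tested, lower genes went from 950 of 11696 in the main fit to 1332 of 11698 with median centring. They numbered 1145 of 11725 with that floor, 1147 of 8593 with that filter and 1233 of 11696 with the trend. With the mean of probe sets 1 gene was higher at 48 h, and with a floor of 64, 1 was higher at 12 h than at 3 h. Over all genes tested, 2700 of 10749 and 2035 of 11725 were higher in these fits in turn. Leaving out 1 array gave 0 to 2 higher genes between 24 and 48 h, and 0 higher and 2 to 4 lower in HAFTL.

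The labels share only a replicate number, and deviations of same-numbered arrays correlated at -0.03 to 0.04 over 15 pairs of groups. With the replicate block 45 genes were higher at 3 h, 39 lower at 24 h and 39 lower at 48 h. Of all 11696 genes tested, the block gave 2377 higher at 3 h, 3834 lower at 24 h and 4428 lower at 48 h. With 2 arrays a group, small changes near the threshold depend on single arrays, and signals under the filter give only bounds.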
